A study of Mus musculus with 19 samples.

Results

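Bmpr1a, a type I receptor for bone morphogenetic proteins (BMPs), had a lower level on every array of monocyte-derived Kupffer cells (mo-KCs) than on any array of embryonically derived Kupffer cells (em-KCs). The 10 genes described here are 6 receptors of the TGF-beta family (Bmpr1a, Bmpr2, Acvr1, Acvrl1, Tgfbr1 and Tgfbr2), 3 genes that such receptors switch on in many cell types (Smad7, Id1 and Id3) and 1 ligand (Gdf3). They were taken from a list of gene symbols, out of 19938 genes measured, and each was represented by the probeset of that single symbol with the highest mean. Bmpr1a and Gdf3 were listed because earlier results of these arrays showed the first lower and the second higher in mo-KCs, so the values of the 10 genes in mo-KCs against em-KCs are given as a description, with no test.

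Kupffer cells (KCs), the resident macrophages of the liver, were sorted from C57Bl/6 mice of 6 to 12 weeks in a leukocyte gate (CD45+) that required the KC protein Clec4F together with CD11b at an intermediate level and left out cells with Ly6C, Ly6G or SiglecF, and their RNA was amplified and hybridised to Affymetrix Mouse Gene ST arrays, 1 array per sample. In KC-DTR mice a cassette with a yellow fluorescent protein and the human diphtheria toxin receptor was knocked in to Clec4f, a lectin gene that KCs use, so that diphtheria toxin (DT) removes KCs and monocytes can refill the liver. The 11 em-KC arrays came from KC-DTR mice without DT (3), a WT littermate without DT (1), WT littermates 15 days (2) or 30 days (2) after 50 ng DT, and WT mice (3). The 8 mo-KC arrays came from KC-DTR mice 15 days (3) or 30 days (5) after 50 ng DT. Within a group, arrays are labelled as biological replicates.

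Receptors of this family work as complexes of type I and type II chains. The type II chain (Bmpr2 for BMPs, Tgfbr2 for TGF-beta) activates the type I chain (Bmpr1a, Acvr1 or Acvrl1 for BMPs and related ligands, Tgfbr1 for TGF-beta), which then phosphorylates SMAD proteins that enter the nucleus. Id1 and Id3, which block basic helix-loop-helix factors, are classical targets of BMP signals, and Smad7 is an inhibitor that the pathway induces against itself. In the liver, BMPs are best known for setting hepcidin in hepatocytes, and TGF-beta for activating stellate cells.

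The arrays fell into sets of 13 and 6 that the labels do not explain. Xist, an RNA of the inactive X chromosome, was between 8.72 and 9.51 on the log2 scale in the 3 WT em-KC arrays and in day 30 mo-KC replicates 3 to 5, and between 4.07 and 4.53 in the other 13, while the Y-linked Eif2s3y was 3.30 to 4.28 against 7.53 to 8.06. The mean log2 level of 24 immediate-early genes was 7.50 to 7.89 in the 6 arrays and 8.60 to 9.44 in the 13, with no overlap, and that of 16 hepatocyte markers was 7.93 to 9.86 against 7.35 to 8.59. No source used here gives the sex or batch of single samples, and sex, batch and colony cannot be told apart among em-KCs. The 14 KC markers had a mean log2 level of 12.15 to 12.30 in em-KCs and 11.68 to 11.93 in mo-KCs and Clec4f was at least 10.66 on every array, although it was lower in day 30 mo-KCs, as given further on with the other markers. All values below are log2 expression levels or differences of them, a level is compared only with the same gene on other arrays, and the files used here hold no detection call, so the level that stands for no transcript is not known.

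Bmpr1a had a lowest level of 5.57, a median of 6.80 and a highest level of 7.13 over the 11 em-KC arrays. It was 3.71, 3.56 and 3.55 in the 3 day 15 mo-KC arrays, and 3.48, 4.14, 4.00, 4.14 and 4.07 in the 5 day 30 arrays. Every mo-KC array lay below every em-KC array, with a gap of 1.43 between the nearest of them. The difference was -2.97 (95% interval -3.49 to -2.44), or 7.82-fold, at day 15 and -2.61 (-3.04 to -2.17), or 6.09-fold, at day 30. Since the level that stands for no transcript is not known, these folds are those of the array signal and need not equal the fold of the transcript. Because each array holds RNA of a pool of cells, fewer cells with the transcript and less transcript per cell cannot be told apart.

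Bmpr1a was lower in both sets of arrays. Within the 13 arrays with low Xist the day 30 difference was -2.98 (95% interval -3.48 to -2.49), and within the 6 arrays with high Xist it was -1.92 (-2.34 to -1.50). The smaller value of the second set went with lower Bmpr1a levels in its em-KCs, 5.57, 6.13 and 6.26, against 6.09 to 7.13 in the 8 arrays from untreated KC-DTR mice and from littermates, together called the colony here. On the mo-KC side, the day 30 levels were 4.00, 4.14 and 4.07 in the second set and 3.48 and 4.14 in the first.

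**Figure D1:**
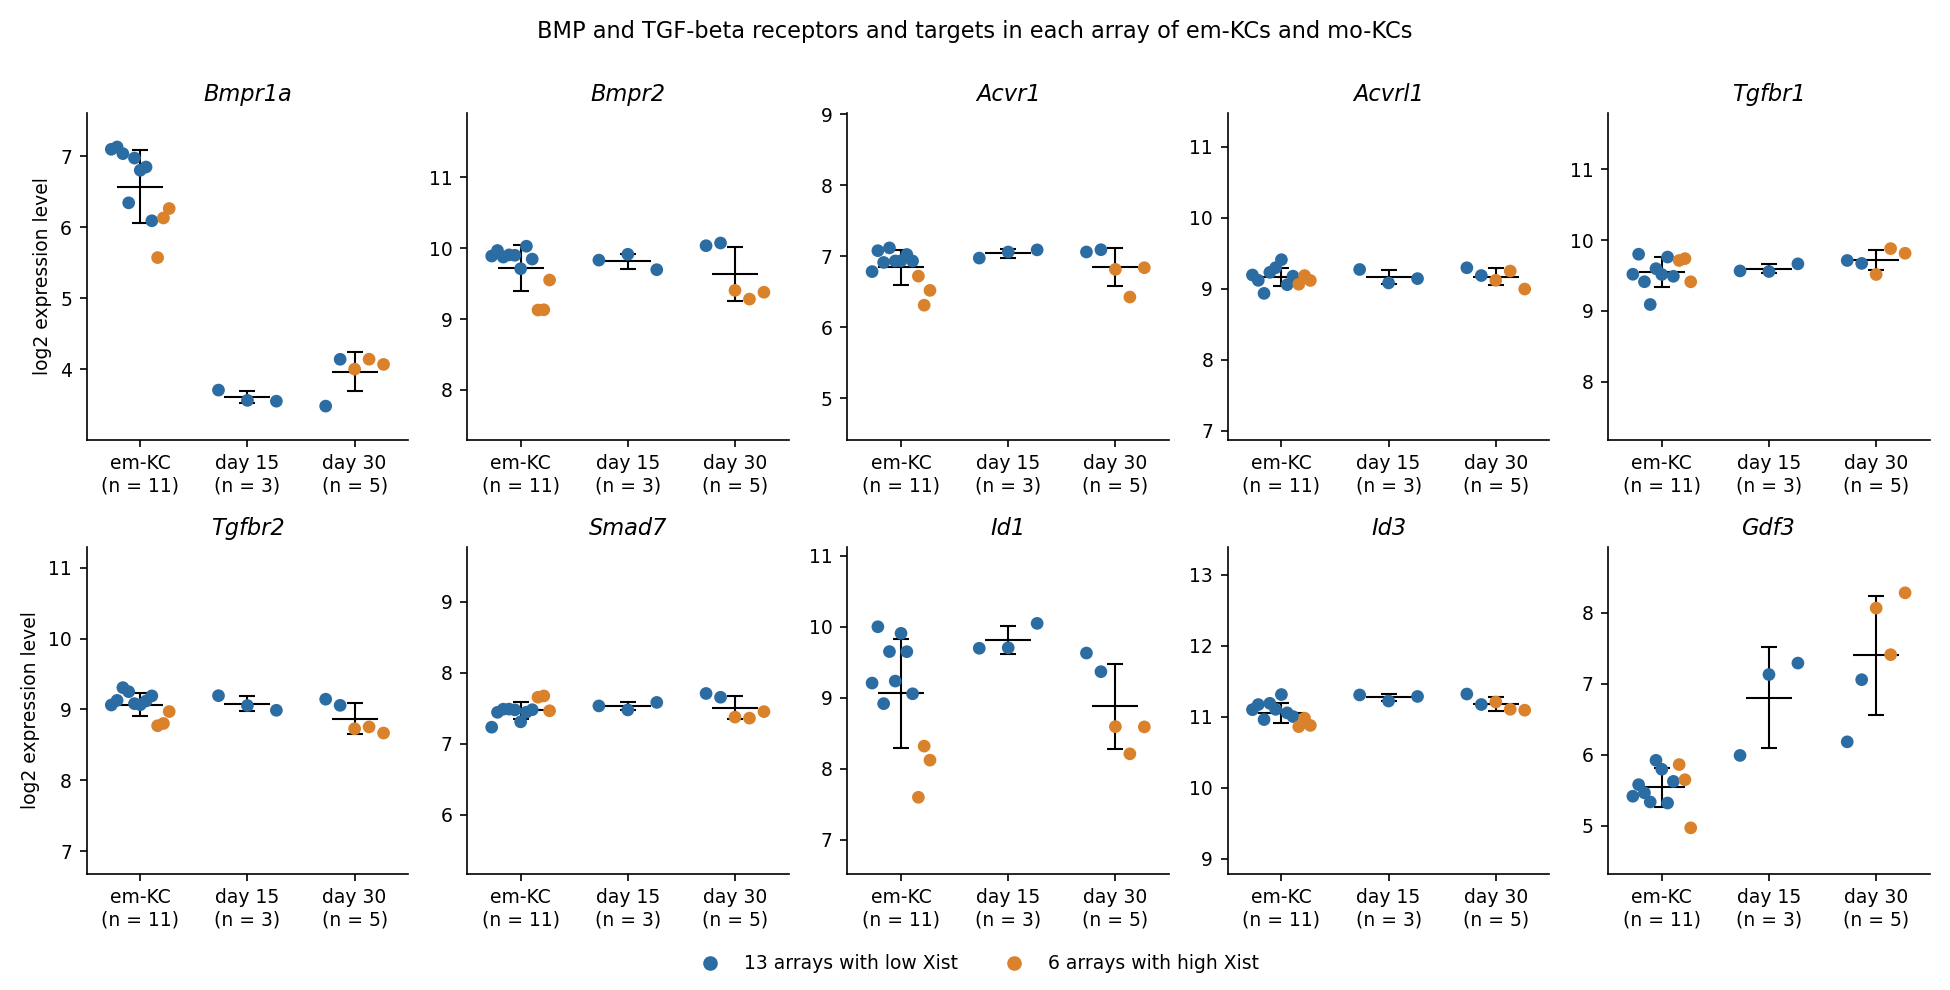
Log2 expression level of the 10 genes on each of the 19 arrays, grouped by KC origin and day. Points are arrays, coloured by the sets of 13 and 6 arrays, black lines are the mean and SD of the group, and every panel spans the same log2 range; Bmpr1a is at or below 4.14 in all 8 mo-KC arrays, and Id1 separates by array set.

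The sequence before the transcript start is shown for Bmpr1a, the receptor gene with the lower level, and for Id3, the target gene with the steadiest level of the 3 targets over the 2 mo-KC groups. Both are from RefSeq (GRCm38.p6), whose table held windows for 6 of the 10 genes, and both run 250 bases up to the start. Capitals mark CAGAC or its other strand GTCTG, and GGCGCC, short letters that SMAD proteins are known to bind, searched on both strands. The Bmpr1a sequence is chr14:34502547-34502796 on the minus strand and that of Id3 is chr4:136143572-136143821 on the plus strand. The annotated Bmpr1a gene spans chr14:34411061-34503336, so its window lies inside the gene, before the start of a shorter transcript than the one that reaches furthest, while the Id3 window ends at the start of its gene.
Bmpr1a: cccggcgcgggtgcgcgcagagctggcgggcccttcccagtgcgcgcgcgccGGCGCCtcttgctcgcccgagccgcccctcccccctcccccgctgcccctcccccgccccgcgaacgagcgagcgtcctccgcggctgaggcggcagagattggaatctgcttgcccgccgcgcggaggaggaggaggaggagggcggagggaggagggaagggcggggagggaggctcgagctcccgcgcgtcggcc
Id3: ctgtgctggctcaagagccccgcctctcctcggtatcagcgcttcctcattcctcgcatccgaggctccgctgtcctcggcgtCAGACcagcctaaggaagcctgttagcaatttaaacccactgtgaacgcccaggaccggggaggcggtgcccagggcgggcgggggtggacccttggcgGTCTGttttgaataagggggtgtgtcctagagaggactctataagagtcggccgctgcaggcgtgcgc
The Bmpr1a window held GGCGCC 1 time and CAGAC 0 times, and the Id3 window held CAGAC or its other strand 2 times and GGCGCC 0 times. Of 32851 promoter windows of the same length, 42.2% held CAGAC and 9.59% held GGCGCC on either strand. These matches are letters in a window and were not measured as binding sites.

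In mo-KCs against em-KCs the other receptors did not move with Bmpr1a. Bmpr2, the type II partner of Bmpr1a, had a lowest level of 9.13, a median of 9.87 and a highest level of 10.03 in em-KCs. It was 9.83, 9.91 and 9.70 at day 15 and 10.03, 10.07, 9.40, 9.28 and 9.38 at day 30. The groups overlapped, and the differences were 0.09 (95% interval -0.30 to 0.49) at day 15 and -0.09 (-0.42 to 0.24) at day 30. Acvr1, a second type I receptor for BMPs, was 6.31 to 7.12 in em-KCs with a median of 6.93. It was 6.98, 7.06 and 7.09 at day 15 and 7.06, 7.09, 6.82, 6.43 and 6.84 at day 30, so it too overlapped, with differences of 0.20 (-0.11 to 0.50) and 0.00 (-0.25 to 0.26).

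Acvrl1, the type I receptor that endothelium uses for BMP9 and BMP10, had the least spread of the receptors, with levels of 8.93 to 9.41 over em-KC arrays and 8.99 to 9.29 over the 8 mo-KC arrays. Its differences were 0.00 (95% interval -0.18 to 0.19) at day 15 and 0.01 (-0.15 to 0.16) at day 30. The TGF-beta receptor chains also overlapped between the groups. Tgfbr1 was 9.09 to 9.80 in em-KCs and 9.51 to 9.88 in the 8 mo-KC arrays, and Tgfbr2 was 8.77 to 9.31 and 8.67 to 9.19. The day 30 differences were 0.17 (-0.03 to 0.37) for Tgfbr1 and -0.20 (-0.40 to 0.00) for Tgfbr2. For each of these 5 receptors the 95% interval at both days lay within 1.5-fold of no difference.

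Of the target genes, Id3 and Smad7 did not follow Bmpr1a in mo-KCs against em-KCs. Id3 had a lowest level of 10.86, a median of 11.06 and a highest level of 11.31 in em-KCs. It was 11.31, 11.22 and 11.29 at day 15 and 11.32, 11.17, 11.21, 11.11 and 11.09 at day 30. The mo-KC levels sat in the upper part of the em-KC range, and the differences were 0.22 (95% interval 0.03 to 0.40) and 0.12 (-0.03 to 0.28). Smad7 was 7.23 to 7.67 in em-KCs with a median of 7.48. It was 7.53, 7.47 and 7.58 at day 15 and 7.71, 7.65, 7.37, 7.36 and 7.45 at day 30, again within or close to the em-KC range, with differences of 0.06 (-0.13 to 0.26) and 0.04 (-0.12 to 0.20).

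Id1 varied most among the targets, and along the array sets rather than the KC origin. Its lowest level in em-KCs was 7.60, its median 9.21 and its highest level 10.00. It was 9.70, 9.71 and 10.05 at day 15 and 9.63, 9.37, 8.60, 8.21 and 8.59 at day 30, where replicates 3 to 5 were the 3 low ones. The differences were 0.76 (95% interval -0.06 to 1.57) at day 15 and -0.18 (-0.86 to 0.49) at day 30, and the second changed direction when the fit was blocked on array set, to 0.24 (-0.12 to 0.60). Within the 13 arrays Id1 at day 30 differed by 0.05 (-0.45 to 0.54), and within the 6 arrays by 0.45 (-0.01 to 0.91). Over all em-KC arrays the interval of Id1 reached past 1.5-fold upward at day 15 and downward at day 30. The day 30 interval within the 13 arrays lay inside 1.5-fold. Those of the blocked fit and of the 6 arrays reached past it upward but not downward.

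Gdf3, a ligand of the family related to the growth and differentiation factors, was higher in mo-KCs. It was 4.97 to 5.92 in em-KCs with a median of 5.58. It was 5.99, 7.13 and 7.29 at day 15 and 6.18, 7.06, 8.07, 7.41 and 8.28 at day 30. No mo-KC array fell into the em-KC range, although the margin was as little as 0.07 for day 15 replicate 1. The difference was 1.26 (95% interval 0.62 to 1.91), or 2.40-fold, at day 15 and 1.86 (1.32 to 2.40), or 3.63-fold, at day 30. At day 30 it was 1.06 (0.49 to 1.64) within the 13 arrays and 2.43 (1.80 to 3.06) within the 6 arrays, and replicate 1 of both days had the lowest level of its group.

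**Figure D2:**
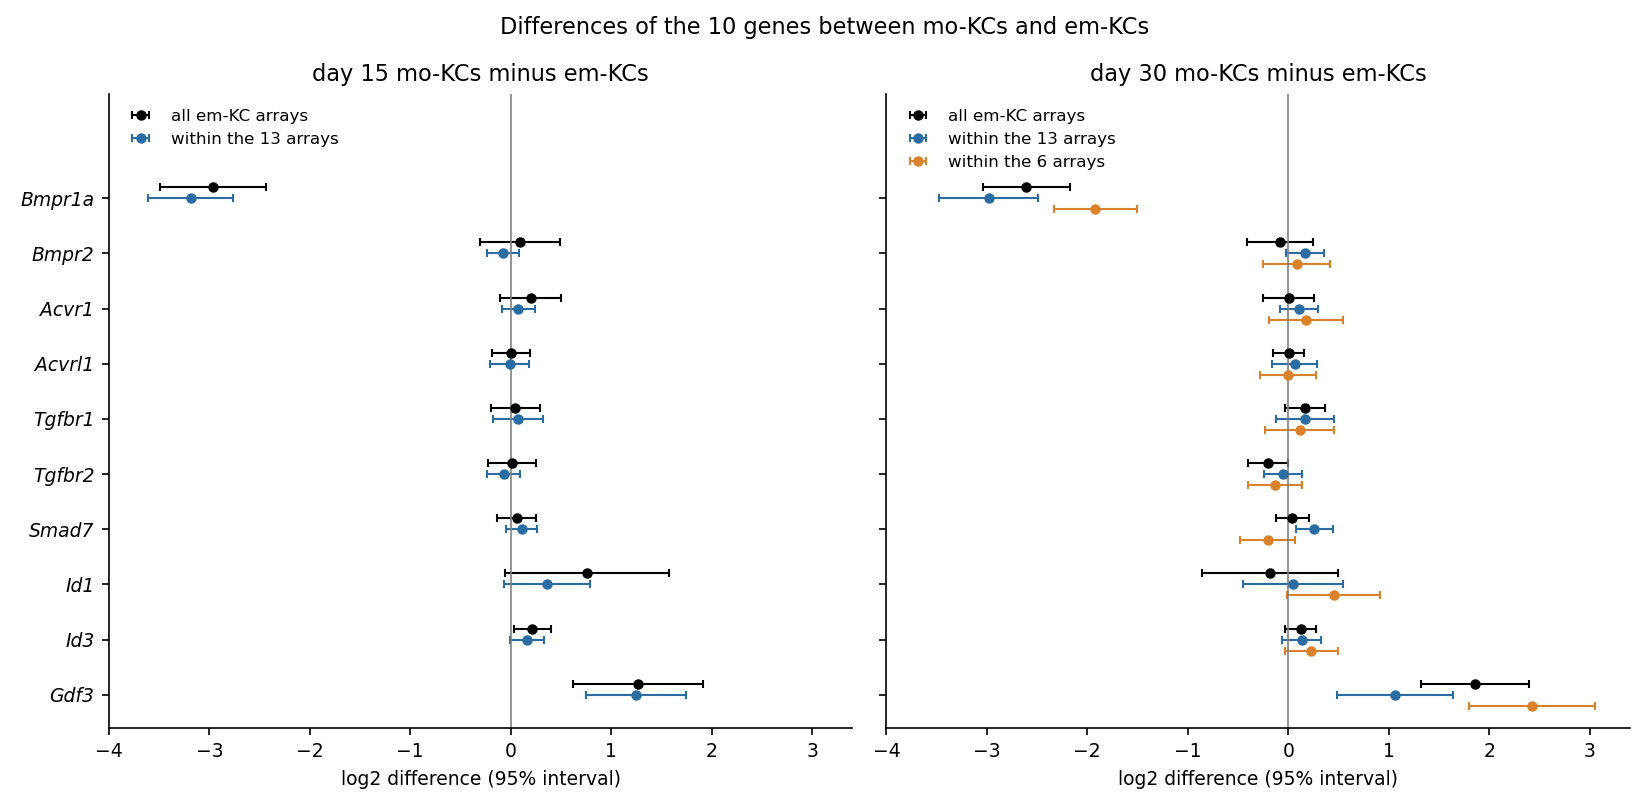
Log2 difference of each of the 10 genes between mo-KCs and em-KCs at day 15 (left) and day 30 (right), with 95% intervals, over all em-KC arrays and within the sets of 13 and 6 arrays. Bmpr1a lies between -3.19 and -1.92 and Gdf3 between 1.06 and 2.43 in every estimate drawn, and the other 8 genes lie near 0 apart from Id1.

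The rest of the pathway was read from 5 lists with 112 distinct genes measured. Unlike the 10 genes, they were tested in mo-KCs against em-KCs, by limma with Benjamini-Hochberg adjustment over all genes at a threshold of 0.05. At day 15 limma called none of the 112, where it called 0.502% of all genes, and the methods' t-test called 0. An unadjusted p under 0.05 from limma was found for 6 of the 112 and for 1206 of all 19938 genes. At day 30 it was found for 8 of the 112 and for 2582 of all 19938 genes. After adjustment limma called 1 of the 112 at day 30, where it called 0.787% of all genes. That gene was Ccn1, a matricellular protein gene that TGF-beta induces. The median difference over the 112 genes was -0.03 at day 15 and -0.02 at day 30, against -0.01 and -0.02 over all genes. The 95% interval lay within 1.5-fold of no difference for 101 of the 112 genes at day 15 and for 102 at day 30.

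Ccn1 had a lowest level of 5.99, a median of 6.88 and a highest level of 7.20 in em-KCs. It was 6.71, 6.62 and 6.14 at day 15 and 6.17, 6.13, 6.00, 6.07 and 6.25 at day 30. All day 30 arrays lay below every em-KC array but WT replicate 1, which had the 5.99. The difference at day 30 was -0.71 (95% interval -1.02 to -0.40, adjusted p = 0.0193 from limma). It was -0.74 (adjusted p = 0.0718 from limma) within the 13 arrays and -0.58 (adjusted p = 0.26 from limma) within the 6 arrays, and the call was lost without day 30 replicate 3 (adjusted p = 0.0846 from limma) or replicate 4 (adjusted p = 0.0717 from limma).

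Among the 15 other receptors and co-receptors measured, none was called, and the day 30 differences ran from -0.13 to 0.15. Bmpr1b, the type I receptor closest to Bmpr1a, differed by -0.08 (95% interval -0.27 to 0.10) at day 15 and by 0.08 (-0.08 to 0.23) at day 30. The activin receptor chains Acvr1b, Acvr2a and Acvr2b had day 30 differences of 0.00, -0.03 and -0.13. The co-receptors Eng and Tgfbr3 had -0.10 and -0.03.

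None of the 7 SMAD genes was called. The BMP-activated Smad1 and Smad5 differed by 0.04 and -0.07 at day 15 and by -0.14 and 0.04 at day 30. The TGF-beta-activated Smad2 and Smad3 differed by 0.14 and -0.08 at day 30, the shared partner Smad4 by -0.02 and the inhibitory Smad6 by -0.01. Over all em-KC arrays the lowest value of the list was that of Smad9, with -0.27 at day 15 and -0.29 at day 30. Smad9 was the 1 gene of the 7 with an unadjusted p under 0.05 from limma at each day. Within the 6 arrays alone Smad2 and Smad5 differed by 0.47 and 0.44 at day 30, and within the 13 arrays by -0.01 and -0.14.

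None of the 30 ligands was called. The day 30 differences were -0.17 for Tgfb1, 0.01 for Tgfb2, 0.02 for Bmp2, -0.11 for Bmp6, 0.06 for Bmp10, 0.21 for Gdf2 and -0.10 for Inhba. The 29 inhibitors and modulators gave none either, with Bambi, a decoy receptor, at 0.16 and the SMAD repressor Skil at 0.13. Their highest value was that of Zfyve9, which anchors SMADs at the receptor, with 0.78 at day 15 and 0.54 at day 30. It was called within the 13 arrays at both days and is named because of its value.

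Of the 37 other targets, Ccn1 was the 1 that passed. Id2, the relative of Id1 and Id3, differed by 0.45 (95% interval 0.06 to 0.85) at day 15 and 0.26 (-0.07 to 0.59) at day 30. Hamp, the hepcidin gene and a BMP target of hepatocytes, had -0.43 (-1.31 to 0.45) and 0.06 (-0.66 to 0.79), and Tgfbi and Pmepa1, induced by TGF-beta, had -0.13 and 0.04 at day 30. The list's median was 0.02 at day 15 and -0.01 at day 30.

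In a day 30 fit blocked on array set, 5 of the 112 genes were called, where 2.58% of all genes were. These were Ccn1 and Smad9, which were lower, and Id2, Ppm1a and Zfyve9, which were higher. Within the 13 arrays Zfyve9 was the 1 called at day 30 (0.326% of all genes), and within the 6 arrays Id2 was (4.15% of all genes). At day 15 Tgif1 and Zfyve9 were called within the 13 arrays, both higher (1.16% of all genes).

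**Figure D3:**
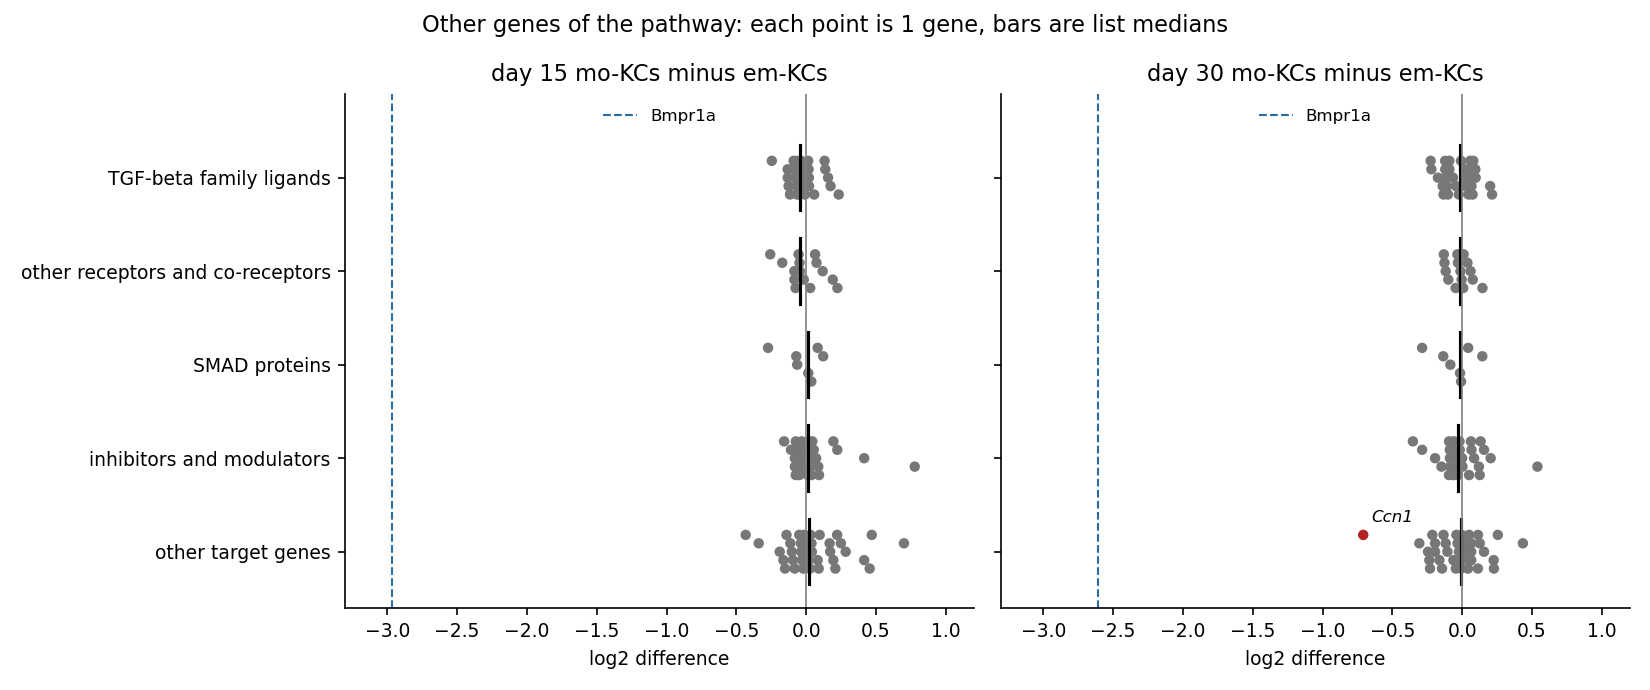
Log2 difference between mo-KCs and em-KCs at day 15 (left) and day 30 (right) for the measured genes of 5 lists. Each point is 1 gene, black bars are list medians, red marks a gene called by limma and the dashed line is Bmpr1a; Ccn1 at day 30 is the single red point, and every point lies to the right of Bmpr1a.

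Between the days, limma called none of the 10 genes, with 1 at an unadjusted p under 0.05, while it called 0.0201% of all genes. The methods' t-test called 0 of all genes. Day 30 minus day 15 was 0.36 for Bmpr1a (95% interval -0.23 to 0.95), 0.60 for Gdf3 (-0.13 to 1.32) and -0.94 for Id1 (-1.85 to -0.02, adjusted p = 0.92 from limma). The day 15 arrays all belong to the set of 13, and 3 of the 5 day 30 arrays to the set of 6.

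Differences among em-KCs were larger for several of the genes than those between em-KCs and mo-KCs. Of the 10 genes, 4 were lower in WT em-KCs than in em-KCs of the KC-DTR colony and none was higher, while 9.64% of all genes were called lower and 16.5% in either direction. Here, as in the comparison of untreated KC-DTR em-KCs with littermates, the differences are between means over conditions in which each condition has the same weight, so a condition with 1 array weighs as much as one with 3. Id1 was 7.60, 8.32 and 8.12 in the WT arrays and 8.92 to 10.00 in the 8 colony arrays, with no overlap. Its difference was -1.47 (95% interval -2.07 to -0.87, adjusted p = 0.00221 from limma). The day 30 mo-KC arrays repeated this split, with Id1 at 8.60, 8.21 and 8.59 in the 3 arrays with high Xist and 9.63 and 9.37 in the 2 with low Xist.

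Bmpr2 was 9.13, 9.13 and 9.55 in WT em-KCs and 9.71 to 10.03 in the colony, and Acvr1 was 6.72, 6.31 and 6.52 against 6.78 to 7.12. Neither overlapped, and the differences were -0.62 (adjusted p = 0.0136 from limma) and -0.47 (adjusted p = 0.0166 from limma). Bmpr1a was lower by -0.71 (adjusted p = 0.00891 from limma) with some overlap. Among em-KCs, Id1, Bmpr2 and Acvr1 were thus lower in the same comparison as Bmpr1a, unlike in mo-KCs against em-KCs. The calls were lost without WT replicate 1 for Bmpr1a (adjusted p = 0.0709 from limma) and Bmpr2 (adjusted p = 0.0638 from limma), without WT replicate 2 for Bmpr2 (adjusted p = 0.0647 from limma) and Acvr1 (adjusted p = 0.0989 from limma), and without WT replicate 3 for Acvr1 (adjusted p = 0.0509 from limma). By the methods' t-test the Bmpr1a call was also lost (adjusted p = 0.0557). Tgfbr2 with -0.31 (adjusted p = 0.0561 from limma) and Id3 with -0.22 (adjusted p = 0.08 from limma) did not pass.

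Some marker lists also differed between WT and colony em-KCs, where limma called 16.5% of all genes, with 9.64% of all genes lower. Of the 24 immediate-early genes, 15 were lower and 1 was higher in WT em-KCs, with Fos at -2.60 (adjusted p = 0.0046 from limma) and Egr1 at -2.98 (adjusted p = 0.00473 from limma). Of the 16 hepatocyte markers, 15 were higher, with Alb, the albumin gene, at 1.97 (adjusted p = 0.00143 from limma). Of 14 stellate cell markers 5 were higher. Of 20 sinusoidal endothelial markers 3 were lower, which is near the share of all genes called. The part of these lists in the lower Id1, Bmpr2, Acvr1 and Bmpr1a was not tested. Of the 112 pathway genes, 9 were higher and 8 were lower, a share near the 16.5% of all genes called in this comparison. Among them were Id2 (-0.75, adjusted p = 3.4e-04 from limma) and Smad5 (-0.50, adjusted p = 0.00794 from limma), which were lower, and Hamp (1.51, adjusted p = 0.00319 from limma), which was higher together with the hepatocyte markers.

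**Figure D4:**
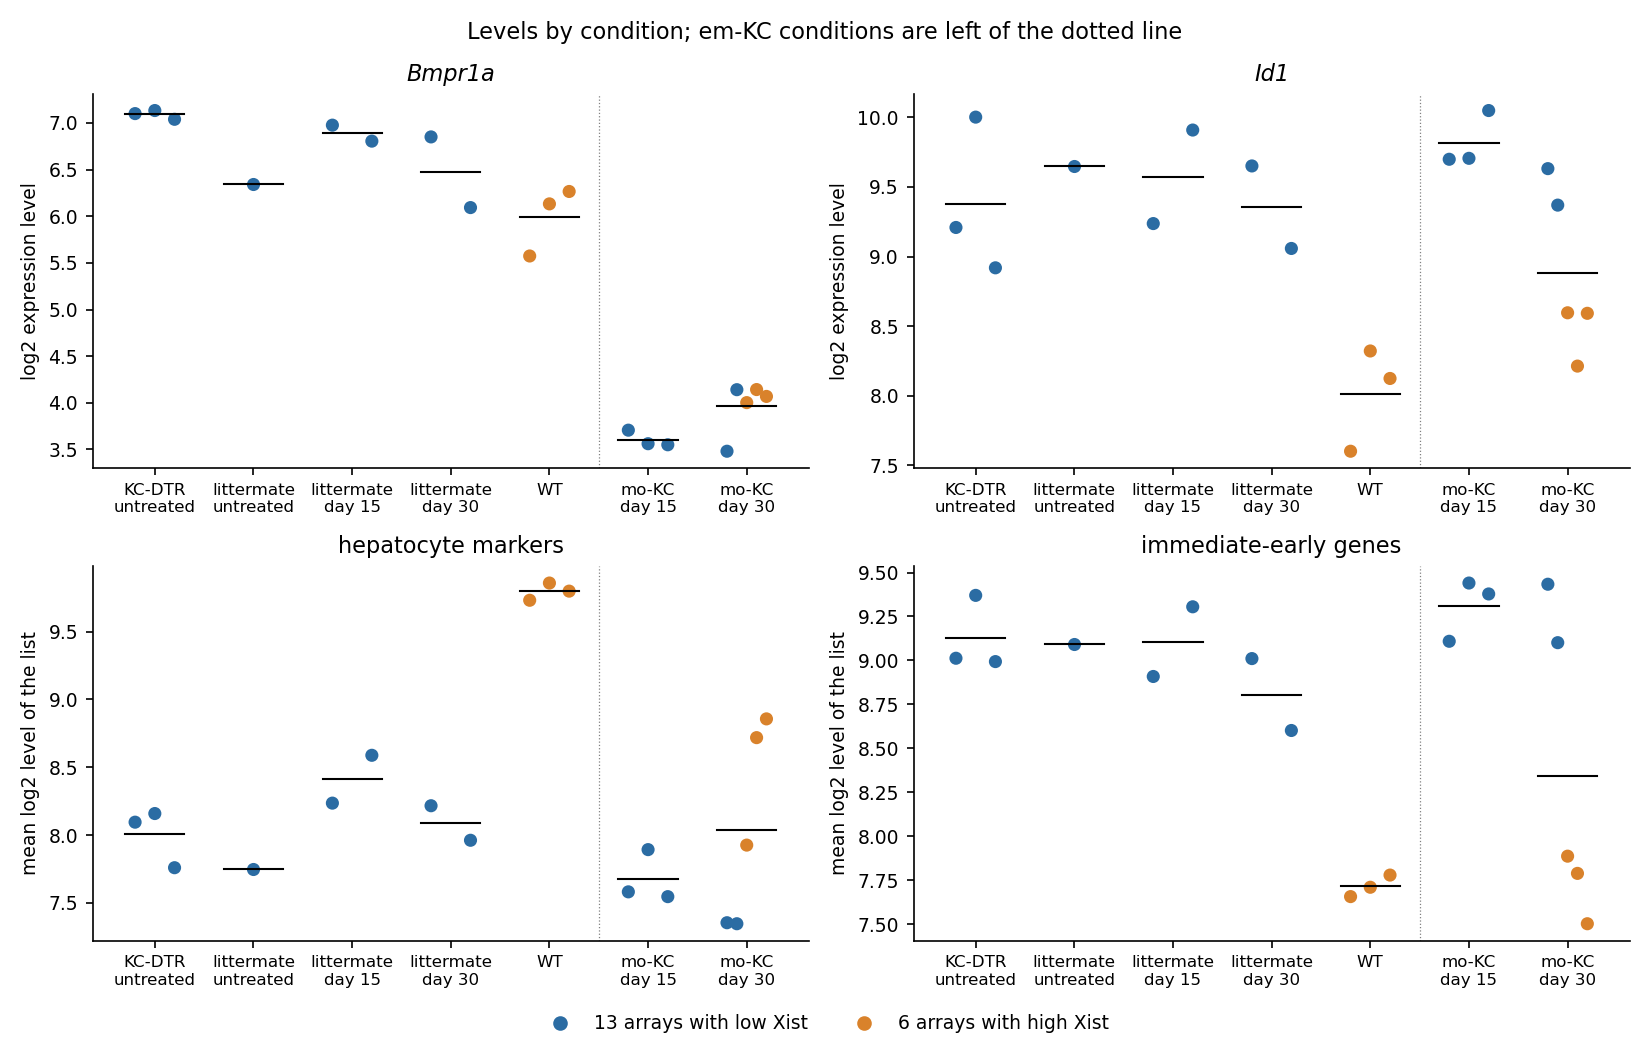
Log2 expression level of Bmpr1a and Id1 (top) and mean log2 level of 16 hepatocyte markers and 24 immediate-early genes (bottom) on each array, by condition. Points are arrays coloured by array set and black lines are condition means; Bmpr1a separates em-KC from mo-KC conditions, while Id1 and the immediate-early genes separate the 6 arrays from the 13.

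By condition, Bmpr1a was highest in untreated KC-DTR em-KCs, 7.09 ± 0.05 (SD, n = 3), followed by littermates at day 15, 6.89 ± 0.12 (SD, n = 2), littermates at day 30, 6.47 ± 0.54 (SD, n = 2), the untreated littermate, 6.35, and WT em-KCs, 5.99 ± 0.37 (SD, n = 3). Day 30 mo-KCs, 3.97 ± 0.28 (SD, n = 5), and day 15 mo-KCs, 3.61 ± 0.09 (SD, n = 3), came last. The littermate and WT conditions next to each other in this order differed by no more than their spread. Between untreated KC-DTR em-KCs and the 5 littermates, Bmpr1a differed by 0.52 with equal weights for the conditions (95% interval 0.14 to 0.91, adjusted p = 1 from limma). In that comparison limma called 0.0% of all genes, with 756 genes at an unadjusted p under 0.05, and the methods' t-test called 0.

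In the day 30 difference, 4.24% of all genes differed between the 2 array sets. Of the 112 pathway genes 1 did, Tgif1, a SMAD corepressor, with -0.71 in the set of 6 minus the set of 13 (adjusted p = 0.0256 from limma). Smad7 differed by 0.26 (95% interval 0.08 to 0.44) within the 13 arrays and by -0.20 (-0.48 to 0.07) within the 6, given side by side with no test.

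The genes most like Bmpr1a over the 19 arrays, by the root mean square difference of profiles centred on their mean, were Sdc2 (0.40), C2 (0.42), Xlr (0.52), Colec12 (0.53) and Timd4 (0.57), where Bmpr1a itself varied by 1.42 about its mean. Sdc2, a cell surface proteoglycan, averaged 7.76 ± 0.32 (SD, n = 11) over em-KC arrays, 4.97 ± 0.27 (SD, n = 3) at day 15 and 5.69 ± 0.35 (SD, n = 5) at day 30. Timd4, a receptor for phosphatidylserine, was 11.90 ± 0.10, 8.16 ± 0.25 and 9.62 ± 0.18 in the same groups. Those most like Gdf3 were Cd207 (0.50), Slfn1 (0.56), Tspan32 (0.59), Trem3 (0.62) and Rpa3 (0.62), where Gdf3 varied by 0.96 about its mean. The em-KC level of Cd207, the C-type lectin langerin, was 10.42 ± 0.35, and its mo-KC levels were 11.63 ± 0.18 (day 15) and 11.87 ± 0.09 (day 30).

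Markers of KCs and of other cells moved beside these values in mo-KCs. Of the 14 KC markers, 13 lay below 0 in the differences at both days, and Marco and Timd4 were called lower at both. Clec4f, the gene of the sort and of the knock-in, was called lower at day 30, by -1.26 (95% interval -1.60 to -0.91, adjusted p = 0.00016 from limma), a call that was lost within the 13 arrays, with -0.74 (adjusted p = 0.175 from limma). At day 15 Clec4f differed by -0.32 (-0.73 to 0.09). The 16 hepatocyte markers had a median difference of -0.99 at day 15, with 0 of 16 above 0, 10 at an unadjusted p under 0.05 and none called. At day 30 the median was -0.60, with 1 of 16 above 0 and 1 called, Trf, the transferrin gene, which was lower. Their mean log2 level was 7.75 to 9.86 in em-KCs, 7.55 to 7.89 at day 15 and 7.35 to 8.86 at day 30. None of the 24 immediate-early genes was called. Their median difference was 0.69 at day 15, with 23 of 24 above 0, and -0.26 at day 30, with 1 of 24 above 0.

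The monocyte markers went both ways. Their median difference was -0.08 at day 15, with 5 of 11 above 0, and 0.02 at day 30, with 6 of 11 above 0, and their mean log2 level was 6.48 to 7.02 in em-KCs, 7.08 to 7.22 at day 15 and 6.72 to 6.99 at day 30. Of the 11, limma called Ccr2 and Cx3cr1 at day 15 and Cx3cr1 and Ms4a4c at day 30, all higher. Ccr2, the chemokine receptor of monocytes, had a level of 5.58 ± 0.36 (SD, n = 11) over the em-KC arrays, which compares with 8.48 ± 0.30 (SD, n = 3) for day 15 and 6.19 ± 0.40 (SD, n = 5) for day 30. None of the 20 sinusoidal endothelial markers was called at either day. Of the 14 stellate cell markers, Ecm1 alone was called, lower at both days, where 0.502% (day 15) and 0.787% (day 30) of all genes were called. The median difference of the 14 was -0.08 at day 15 and 0.01 at day 30. The part of the hepatocyte, immediate-early and monocyte transcripts in the values of Bmpr1a and Gdf3 was not tested.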

How the data were processed

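The authors deposited log2 expression per probeset for 19 arrays, made by Robust Multi-array Average (RMA), which corrects background, summarises probes and quantile-normalises the arrays. Versions of the authors' software were not named in any source read here. From 35556 probesets, the 21789 with a single gene symbol in the platform annotation were kept, which left out 1621 with more than 1 symbol and 12146 without any. The probeset with the highest mean was kept for each of 19938 genes. No pair among 171 pairs of arrays was identical. The number of arrays limits the precision.

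Groups were taken from the sample labels. Separate limma 3.58.1 fits (R 4.3.3) were made. A population fit held the em-KCs and the mo-KCs of each day as groups. Comparisons among em-KCs came from a fit with the conditions of the arrays as groups. The difference between array sets was an interaction in a fit without the day 15 mo-KC arrays. Tests were two-sided, adjusted by Benjamini-Hochberg across every gene and read at 0.05. The population fit was tested on simulated data. Gene symbols, coordinates and promoter sequences were those of RefSeq (GRCm38.p6). Lists of ligands, receptors, SMADs, inhibitors, targets and markers of KCs, hepatocytes, sinusoidal endothelium, stellate cells, monocytes and other leukocytes, of immediate-early and of sex-linked genes were used. None of 14 other leukocyte markers was called by limma at day 15 or day 30. The 10 genes and all lists were chosen with earlier results of these data known. Named pathway genes are those called at day 15 or day 30 and a set of receptors, SMADs, ligands and targets named whatever their result. Gdf15 and Ly6c2 had no probeset of a single symbol and were not analysed here. Alternatives covered the probeset, a filter on dim genes, centring, the threshold, the methods' t-test, moderation of the variance, the replicate number as a block, the array set, the choice of em-KC arrays and leaving out each array.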

Additional observations from a re-analysis of the deposited data

Results flagged for a closer look

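Within the 5 day 30 mo-KC arrays, a value was set apart where its gap to the nearest other array was over 0.71 of the group's range, a test that flags about 1 in 20 groups by chance and was run for 36 genes. Bmpr1a in replicate 1 was 3.48 on the log2 scale, below the 4.00 to 4.14 of the other 4 arrays. Inhba in replicate 4 was 5.05, below 5.48 to 5.64. Skil in replicate 5 was 9.83, above 9.48 to 9.57.

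The day 30 difference of Tgif1 was not the same in the 2 array sets, with -0.71 on the log2 scale in the 6 arrays minus the 13 arrays (adjusted p = 0.0256 from limma). The corresponding value for Gdf3 was 1.36, with 2.43 in the 6 arrays and 1.06 in the 13, and is given as a description because Gdf3 was chosen on its difference between mo-KCs and em-KCs. Sex, array batch and array set cannot be told apart in these comparisons.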

How the results depend on the processing

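Bmpr1a stayed lower at both days under every alternative that kept it, and the filter to genes above the median level removed it. Gdf3 was higher at day 30 under every alternative, by 1.06 to 2.43. These values of Bmpr1a and Gdf3 are descriptions, because both genes were listed for their differences. The filter kept Gdf3 only through its mo-KC arrays, since its em-KC levels of 4.97 to 5.92 were all below the median level of 6.05. With each array left out, the difference of Bmpr1a was -2.71 to -2.49 at day 30 and -3.07 to -2.91 at day 15. Of all genes, limma called 157 at day 30, against 84 with the methods' t-test, 75 at a threshold of 0.01, 49 with the replicate block, 514 blocked on array set, 65 within the 13 arrays, 827 within the 6 arrays and 63 with untreated KC-DTR em-KCs only. The count was 93 to 316 with each array left out, at its lowest without day 30 replicates 3 or 4 (93) and at its highest without replicate 2 (316) or replicate 1 (305). At day 15 the 100 genes became 66 with the methods' t-test, 168 blocked on array set, 231 within the 13 arrays and 64 with untreated KC-DTR em-KCs only, and 57 to 111 with each array left out, where 57 came without day 15 replicate 3. Between the days 4 genes became 0 with the methods' t-test and 8 blocked on array set, and 4 to 6 with each array left out. WT against colony em-KCs gave 3289 genes, 1484 at a threshold of 0.01 and 2341 to 3547 with each array left out. The difference between array sets gave 845 genes, 239 at a threshold of 0.01, 71 with the replicate block and 215 to 1067 with each array left out, where 215, 264 and 553 came without day 30 replicates 1, 2 and 5. Untreated KC-DTR against littermate em-KCs gave 0 throughout.

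The 1 pathway gene called at day 30 became 0 with the methods' t-test, at a threshold of 0.01, with the replicate block and with untreated KC-DTR em-KCs only, 5 blocked on array set and 0 to 2 with each array left out. At day 15 the count of 0 became 2 within the 13 arrays and stayed 0 with each array left out. The causes of these changes were not tested, and some settings hold fewer arrays. Of 36 same-numbered pairs of arrays, 5 had a correlation of deviations above 0.1, with a range of -0.12 to 0.15. All 5 included a day 15 mo-KC array. Pairs with different numbers were not compared, so whether the replicate numbers pair the arrays was not tested. The comparison between array sets has no methods' t-test.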
